A study of Mus musculus with 2 samples.

Results

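The immediate early transcription factors described here were 10 genes chosen by symbol, Fos, Fosb, Jun, Junb, Jund, Egr1, Egr2, Egr3, Atf3 and Nr4a1, of 32285 genes in the count tables. All 10 were found. They were measured in the stromovascular cells of perigonadal white fat (gWAT), those left when fat-laden adipocytes are floated off. Both groups were male Cyp1a1Cre x R26LSL-eYFP mice, in which Cre driven by Cyp1a1 permanently turns on eYFP, so that an eYFP+ cell has had an active aryl hydrocarbon receptor (AHR) pathway at some time. FICZ, a ligand of AHR, was given to both at 10 mg/kg, 5 days before the tissue was taken. One group had 12 weeks of low-fat diet (LFD, 10% fat) and the other 12 weeks of high-fat diet (HFD, 60% fat). Live eYFP+ cells of pooled mice were sorted and made into 1 single-cell library per diet, so each diet had 1 sample and no difference between diets has a replicate check.

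Immediate early genes are transcribed within minutes of a stimulus, without new protein synthesis, by factors already in the cell. Fos and Fosb proteins pair with Jun, Junb or Jund to form AP-1, Egr1, Egr2 and Egr3 are zinc finger factors, Atf3 is a stress-induced partner of the Jun proteins, and Nr4a1 (Nur77) is an orphan nuclear receptor. In lymphocytes, Nr4a1 and the Egr genes are known as reporters of antigen receptor signalling. The same genes are also known to respond to enzymatic digestion of tissue, and these cells were released from the tissue with liberase before sorting. There was no library of undigested tissue, so induction in the animal and induction during digestion cannot be told apart, and their parts were not tested.

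After filtering, 9294 LFD and 7879 HFD cells remained, with medians of 10112 and 12591 unique molecular identifiers (UMIs, counted RNA molecules). The libraries shared 27 barcode sequences. Clusters were named only from marker genes, and "-like" marks such a name. Cells expressing Wt1, a mesothelial and visceral stromal gene, are kept as separate clusters numbered 0, 1 and 4. The leading genes of each of these held no mesothelial, visceral stromal or fibroblastic progenitor marker. Cluster 0 held 207 LFD and 2338 HFD cells, cluster 1 held 2003 and 77, and cluster 4 held 1198 and 73. Plasma cell-like cells came from different clusters in the libraries, 357 of 397 LFD cells from a cluster with 0 HFD cells, and 1363 HFD cells from clusters holding 40 LFD cells. Markers of adipocytes summed to 1.58 CPM (counts scaled to a total of 1000000) in LFD and 1.01 in HFD, and their part in the results was not tested.

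The promoters of 4 factors are shown because the values below separate Fos and Junb, whose levels did not reach 1.5 times higher in HFD in any cell type compared, from Egr2 and Nr4a1, which did in several. This split rests on the clusters: in the class of endothelial-like cells made by assigning cells one by one, described below, Fos and Junb were past 1.5-fold too. Each is the 250 bases before a RefSeq transcription start on GRCm38.p6, and none overlaps an annotated exon. Capitals mark the letters TGACG, part of the element bound by CREB and ATF proteins, on either strand, and the CArG box, the element bound by serum response factor.
Fos, chr12:85473640-85473889, plus strand: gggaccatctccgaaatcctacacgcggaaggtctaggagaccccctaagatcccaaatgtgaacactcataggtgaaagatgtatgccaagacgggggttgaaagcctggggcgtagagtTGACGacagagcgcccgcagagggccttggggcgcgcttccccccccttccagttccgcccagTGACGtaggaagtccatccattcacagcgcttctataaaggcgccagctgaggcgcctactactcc
Junb, chr8:84978749-84978998, minus strand: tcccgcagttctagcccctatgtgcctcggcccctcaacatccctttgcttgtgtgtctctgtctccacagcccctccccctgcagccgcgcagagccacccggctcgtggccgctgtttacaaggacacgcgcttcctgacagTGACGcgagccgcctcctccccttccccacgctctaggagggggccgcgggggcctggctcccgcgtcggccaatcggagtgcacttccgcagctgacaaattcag
Egr2, chr10:67537619-67537868, plus strand: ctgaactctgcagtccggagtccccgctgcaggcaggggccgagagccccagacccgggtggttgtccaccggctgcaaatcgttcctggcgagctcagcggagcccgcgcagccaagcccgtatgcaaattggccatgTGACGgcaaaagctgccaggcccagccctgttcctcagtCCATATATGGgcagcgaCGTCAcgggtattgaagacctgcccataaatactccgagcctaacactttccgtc
Nr4a1, chr15:101266596-101266845, plus strand: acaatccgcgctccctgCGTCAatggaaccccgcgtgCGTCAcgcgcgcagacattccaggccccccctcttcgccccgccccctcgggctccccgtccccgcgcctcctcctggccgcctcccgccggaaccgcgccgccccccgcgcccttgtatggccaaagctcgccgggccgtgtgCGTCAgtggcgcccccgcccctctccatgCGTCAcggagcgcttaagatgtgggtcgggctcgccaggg

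Windows were found for 8 of the 10 factors, all but Egr1 and Egr3. TGACG on either strand lay in a window of 6 of these 8 (Fos, Fosb, Junb, Egr2, Atf3 and Nr4a1), against 17.7% of 32817 promoter windows of the same length. Nr4a1 had 4 matches, Fos 2 and Junb 1. Egr2 had 5 windows, 3 of them overlapping, and the other 7 factors 1 each, so Egr2 had more chances of a match than the single windows of the background. A CArG box lay in 4 Egr2 windows, 72 bases before the start in the one shown, and in no window of the other 7, against 1.47% of all windows. The 3 overlapping Egr2 windows share the same box. Only 250 bases were searched, so a box further upstream of any factor would not be seen. The Jund window ended at chr8:70697738, short of the annotated start of Jund at 70698949. The whole element TGACGTCA and the AP-1 site TGACTCA were in no window of a factor, against 1.55% and 4.46% of all windows. GCGTG, the core to which AHR binds, lay in windows of 4 factors (Fos, Junb, Atf3 and Nr4a1), against 28.1% of all windows. All motifs were searched on both strands, and TGACG is part of TGACGTCA. A match is a run of letters and not a measured binding site.

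Levels are CPM of the counts summed over the cells of a type in a library, with exact 95% Poisson intervals. These intervals, like those of ratios and shares, cover counting error only. UMIs were counted at the 3′ ends of transcripts, so CPM carries no term for gene length. HFD to LFD ratios were taken in the 10 cell types that held 100 or more cells in each library, for genes with at least 50 summed counts, which left 97 of 100 pairs of factor and cell type. In these, 19 pairs (19.6%) were at least 1.5 times higher in HFD, against 11.4% of all gene and cell type pairs tested the same way. With doublets kept, which gave 11 cell types, 12 of 107 pairs (11.2%) were, and no share of all pairs is given for that setting. At least 1.5 times lower were 5 pairs, 5.15% against 5.67% of all pairs. With each type scaled to the median ratio of its genes, 15 pairs (15.5%) were higher and 7 (7.22%) lower. The shares of all pairs are for unscaled ratios, and none is given under this scaling. A counting interval wholly above 1 was seen in 21.6% of all gene and cell type pairs, and one wholly below 1 in 13.4%. Intervals narrow as counts rise, so these shares are not a like reference for factors with many counts. In Wt1-positive cluster 0, Fos had 4248 counts in LFD and 51791 in HFD, against a minimum of 50 summed counts. The higher pairs were Egr3 in 7 types, Nr4a1 in 5, Egr1 in 3, Egr2 in 3 and Atf3 in 1, and in these 10 types none was of Fos, Fosb, Jun, Junb or Jund. Other groupings of endothelial-like cells did put some of these past 1.5-fold. When cells were assigned one by one from marker UMIs in place of clusters, giving 1 endothelial-like class of 707 LFD and 687 HFD cells in place of the 2 groups compared, the ratio there was 1.70 (1.64 to 1.77) for Fos, 2.22 for Fosb, 1.66 for Jun and 1.68 (1.61 to 1.75) for Junb, with Jund at 1.22. A single endothelial-like cluster also formed with coarser clusters (Leiden resolution 0.4, 672 LFD and 603 HFD cells), where Fosb was at 1.89 and Junb at 1.54, and with at least 2000 UMIs per cell (482 and 437 cells), where they were at 2.03 and 1.68. The make-up of such merged groups differed by library, and its part in their ratios was not tested. In the clusters used here Cd300lg-high cells were 329 in LFD and 406 in HFD, Plvap-high cells 342 and 196, and the summed level of the 10 factors in LFD was 10032 CPM in the former and 2890 CPM in the latter.

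**Figure D1:**
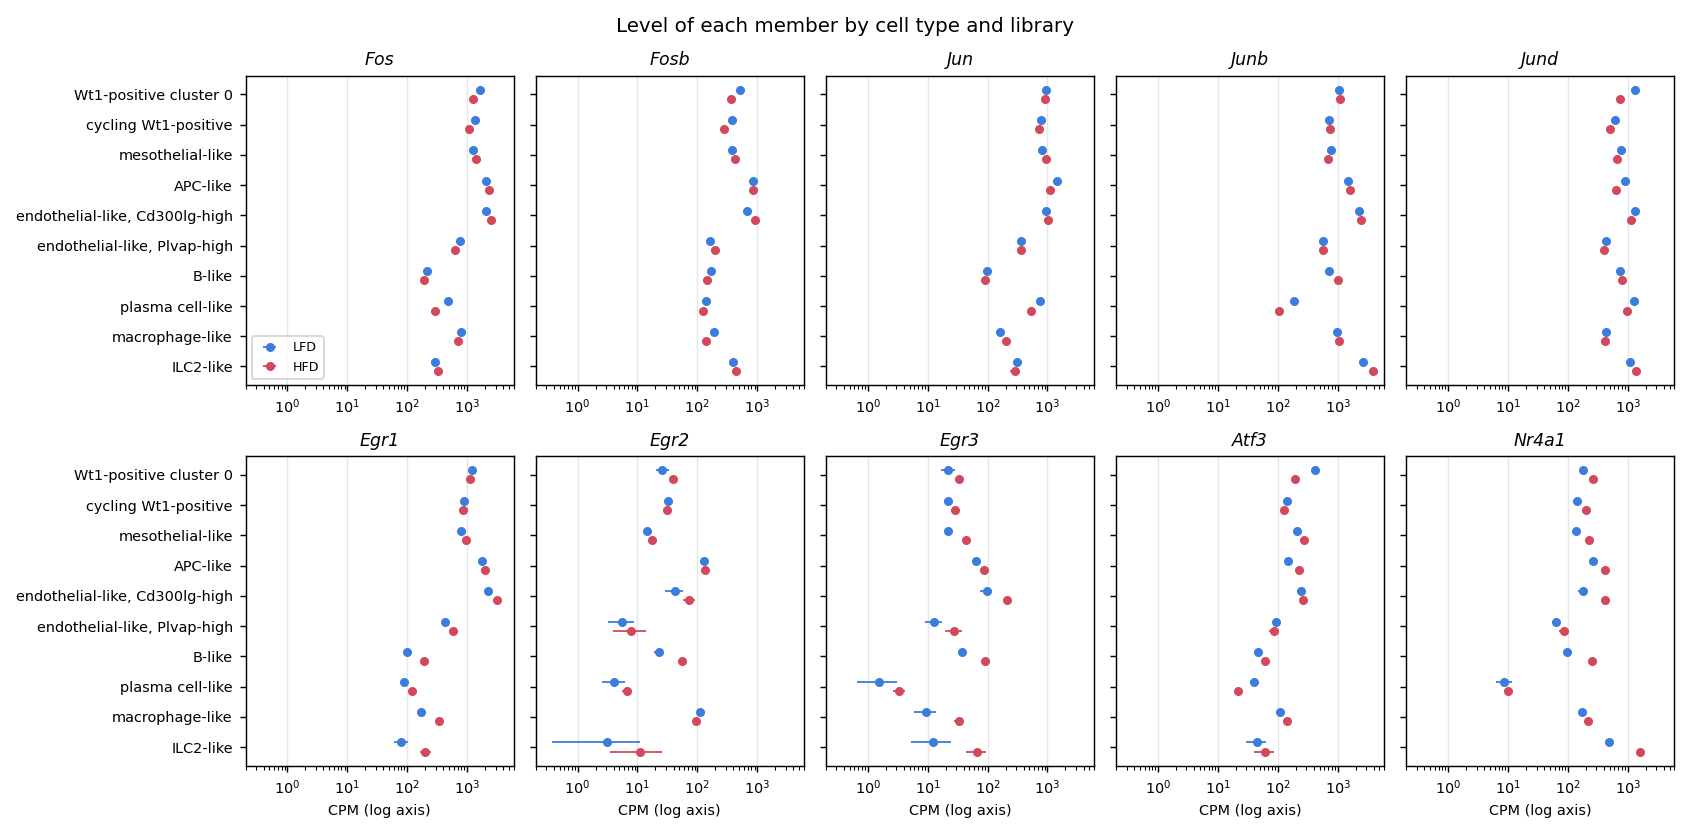
CPM (log axis) of each of the 10 factors in the 10 cell types compared, LFD in blue and HFD in red, with 95% Poisson intervals. For Nr4a1, ILC2-like cells stand highest in both libraries, at 480 and 1619 CPM, and plasma cell-like cells lowest.

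Fos, the founding AP-1 subunit, was highest among types with at least 100 cells in the library in Wt1-positive cluster 4 in LFD (2585 CPM) and in Cd300lg-high endothelial-like cells in HFD (2549 CPM). Among these types it was lowest in B-like cells in both, at 216 and 188 CPM. In cells thinned to 2000 UMIs, a Fos UMI was found in 95.05% of LFD and 91.8% of HFD APC-like cells, the fibroblastic progenitors, and in 31.4% and 26.1% of B-like cells. Median UMIs before thinning were 10224 and 10502 per APC-like cell and 4045 and 4218 per B-like cell. The level of Fos that free RNA could give B-like cells, from the stromal collagens found in them, was 54.0 CPM in LFD and 27.1 in HFD.

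Fos was lower in HFD in 6 of the 10 types with an interval below 1, and higher in 3 with an interval above 1. Plasma cell-like cells had 477 CPM in LFD and 290 in HFD, an HFD to LFD value of 0.607 (0.579 to 0.637), the one pair of Fos past 1.5-fold. In Wt1-positive cluster 0 it went from 1650 to 1243 CPM (0.754, 0.730 to 0.778). In Cd300lg-high endothelial-like cells it went the other way, from 2038 to 2549 CPM (1.25, 1.18 to 1.33). Fos therefore had no common direction over cell types, and its median ratio was 0.867.

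Fosb, a second Fos-family subunit, had ratios from 0.713 to 1.37, above 1 in 5 types and below 1 in 5. In Wt1-positive cluster 0 it was 519 CPM in LFD and 370 in HFD, and in Cd300lg-high endothelial-like cells 666 and 913 CPM. The types with low Fos ratios were thus also low for Fosb, apart from Plvap-high endothelial-like cells, where Fos was at 0.839 and Fosb at 1.18.

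Jun, the main partner of Fos in AP-1, had ratios from 0.732 in plasma cell-like cells to 1.23 in macrophage-like cells. APC-like cells held 1459 CPM in LFD and 1095 in HFD (0.751, 0.720 to 0.783). Jun stayed within 1.5-fold in all 10 types. Its level spanned 12.2-fold over the types compared in HFD, from 89.5 CPM in B-like to 1095 CPM in APC-like cells.

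Junb, a Jun-family subunit prominent in lymphocytes, was highest in ILC2-like cells, innate lymphoid cells that make type 2 cytokines. It was 2620 CPM there in LFD and 3913 in HFD (1.49, 1.40 to 1.597), just under 1.5-fold. In B-like cells it was 709 CPM in LFD and 1031 in HFD (1.45, 1.39 to 1.52). Both lymphoid types were higher in HFD, while plasma cell-like cells were lower, at 185 CPM in LFD and 107 in HFD (0.577, 0.534 to 0.623). Junb was above 1 in 8 types, but in 5 once each type was scaled to the median ratio of its own genes.

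Jund, a Jun-family subunit that many cells express without a stimulus, was the most evenly spread factor. Its highest level was 3.04 times its lowest in LFD and 3.40 times in HFD, against 160.8 times for Nr4a1 in HFD. It was below 1 in 8 types and had the lowest median ratio of the 10 factors, 0.852. In Wt1-positive cluster 0 it was 1298 CPM in LFD and 734 in HFD (0.566, 0.546 to 0.586). In Wt1-positive clusters 1 and 4, which had too few HFD cells to be compared, it was also lower in HFD, from 882 to 609 and from 1172 to 742 CPM. ILC2-like cells stood apart, at 1102 CPM in LFD and 1384 in HFD.

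Atf3 gave calls in both directions. In Wt1-positive cluster 0 it was 414 CPM in LFD and 196 in HFD (0.474, 0.445 to 0.506), and the share of thinned cells with an Atf3 UMI was 51.7% (44.7 to 58.7%) and 28.9% (27.0 to 30.8%). In plasma cell-like cells it was 39.5 and 21.5 CPM (0.545, 0.460 to 0.647). In APC-like cells it was 147 CPM in LFD and 226 in HFD (1.54, 1.36 to 1.74). Both the higher and the cluster 0 call rest on the clustering. With cells assigned one by one, the APC-like class, which held 4733 LFD and 2676 HFD cells against 203 and 566 in the cluster and is thus mostly other cells, had a ratio of 0.837, and the Wt1-positive class had 0.855. In Wt1-positive clusters 1 and 4 the ratios were 0.763 and 0.877.

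Egr1, the best known EGR factor, was highest among the types compared in Cd300lg-high endothelial-like cells, at 2242 CPM in LFD and 3207 in HFD (1.43, 1.35 to 1.51). Among the clusters compared, its ratios past 1.5-fold were in macrophage-like, B-like and ILC2-like cells, while in the merged endothelial-like class of cells assigned one by one it was at 2.33 (2.23 to 2.43). In macrophage-like cells it was 171 CPM in LFD and 339 in HFD (1.98, 1.77 to 2.22), and 19.3% (15.9 to 23.0%) and 28.5% (24.5 to 32.7%) of thinned cells had a UMI, where free RNA could give 42.2 and 18.5 CPM. In B-like cells it was 99.4 and 188 CPM (1.89, 1.69 to 2.11). In ILC2-like cells it was 79.7 and 201 CPM (2.52, 1.77 to 3.61), where the LFD level was under 2 times the 45.2 CPM that free RNA could give. Egr1 was slightly lower in HFD in Wt1-positive cluster 0 (0.918) and in cycling Wt1-positive cells (0.970).

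Egr2, which takes part in macrophage and lymphocyte programmes, was a minor factor by count, at most 132 CPM among the types compared in HFD. APC-like cells (128 CPM in LFD, 132 in HFD) and macrophage-like cells (110 and 94.1 CPM) held the most of the types compared. Neither moved past 1.5-fold. In B-like cells Egr2 was 22.8 CPM in LFD and 56.4 in HFD (2.48, 1.98 to 3.12), and in Cd300lg-high endothelial-like cells 41.9 and 72.8 CPM (1.74, 1.15 to 2.68). Plasma cell-like cells held little, 4.09 and 6.62 CPM (1.62, 1.02 to 2.70), from 21 and 134 counts, and the ratio fell below 1 under 4 alternatives (0.626 to 0.998). ILC2-like cells and Plvap-high endothelial-like cells had under 50 counts and were left out.

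Egr3, known as a target of antigen receptor signalling, was above 1 in all 9 types with enough counts, with every interval above 1, and past 1.5-fold in 7. In macrophage-like cells it was 9.25 CPM in LFD and 32.9 in HFD (3.56, 2.26 to 5.85), from 23 and 111 counts. In B-like cells it was 37.3 and 91.7 CPM (2.46, 2.07 to 2.94), and in Cd300lg-high endothelial-like cells 96.2 and 211 CPM (2.20, 1.69 to 2.87). Mesothelial-like cells held 21.5 CPM in LFD and 43.0 in HFD (2.00, 1.73 to 2.32). Egr3 was at most 211 CPM in any type compared, so its ratios rest on fewer counts than those of Fos or Egr1.

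Nr4a1 was above 1 in all 10 types, with an interval above 1 in 9. In ILC2-like cells it was 480 CPM in LFD and 1619 in HFD (3.37, 2.95 to 3.86), and 63.7% (54.1 to 72.6%) and 91.1% (83.8 to 95.8%) of thinned cells held an Nr4a1 UMI. In B-like cells it was 97.1 and 257 CPM (2.65, 2.38 to 2.95), with shares of 16.4% and 35.9%. In Cd300lg-high endothelial-like cells it was 178 and 412 CPM (2.32, 1.92 to 2.82). Plasma cell-like cells held the least of the types compared, 8.56 and 10.1 CPM (1.18, 0.846 to 1.67), and 1.02% and 2.23% of thinned cells had a UMI, where free RNA could give 3.83 and 3.21 CPM.

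In LFD the order of Nr4a1 levels ran from ILC2-like cells (480 CPM) through Wt1-positive cluster 4 (325), APC-like cells (265) and Wt1-positive cluster 1 (245) to B-like (97.1), Plvap-high endothelial-like (62.5) and plasma cell-like cells (8.56). Neighbouring intervals overlapped in 8 of 13 steps, among them all those from Wt1-positive cluster 0 (179 CPM) to B-like cells. In HFD, ILC2-like cells were followed by APC-like (419) and Cd300lg-high endothelial-like cells (412), whose intervals overlapped, and B-like cells, at 257 CPM, stood level with Wt1-positive cluster 0 (261). In Wt1-positive clusters 1 and 4, outside the comparison, Nr4a1 was 245 and 325 CPM in LFD and 310 and 454 in HFD.

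Being above 1 in every type tested was not rare. Of 4668 genes tested in at least 9 of the 10 types, 9.58% were above 1 in each and 3.23% below, and of the 9 factors tested so widely Egr3 and Nr4a1 were above and none below. Both were also above 1 in each type under scaling to the median ratio, which moved the median of all genes by at most 0.15 on the log2 scale (mesothelial-like cells). Exceptions came with other groupings of the cells. In plasma cell-like cells both were below 1 in the re-groupings given in the closing section, and Egr3 was at 0.889 in the Wt1-positive and mesothelial-like cells with 0 keratin UMIs described below, a group that draws on different clusters in each library. In Wt1-positive clusters 1 and 4, outside the comparison, Egr3 was at 1.42 and 1.55.

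**Figure D2:**
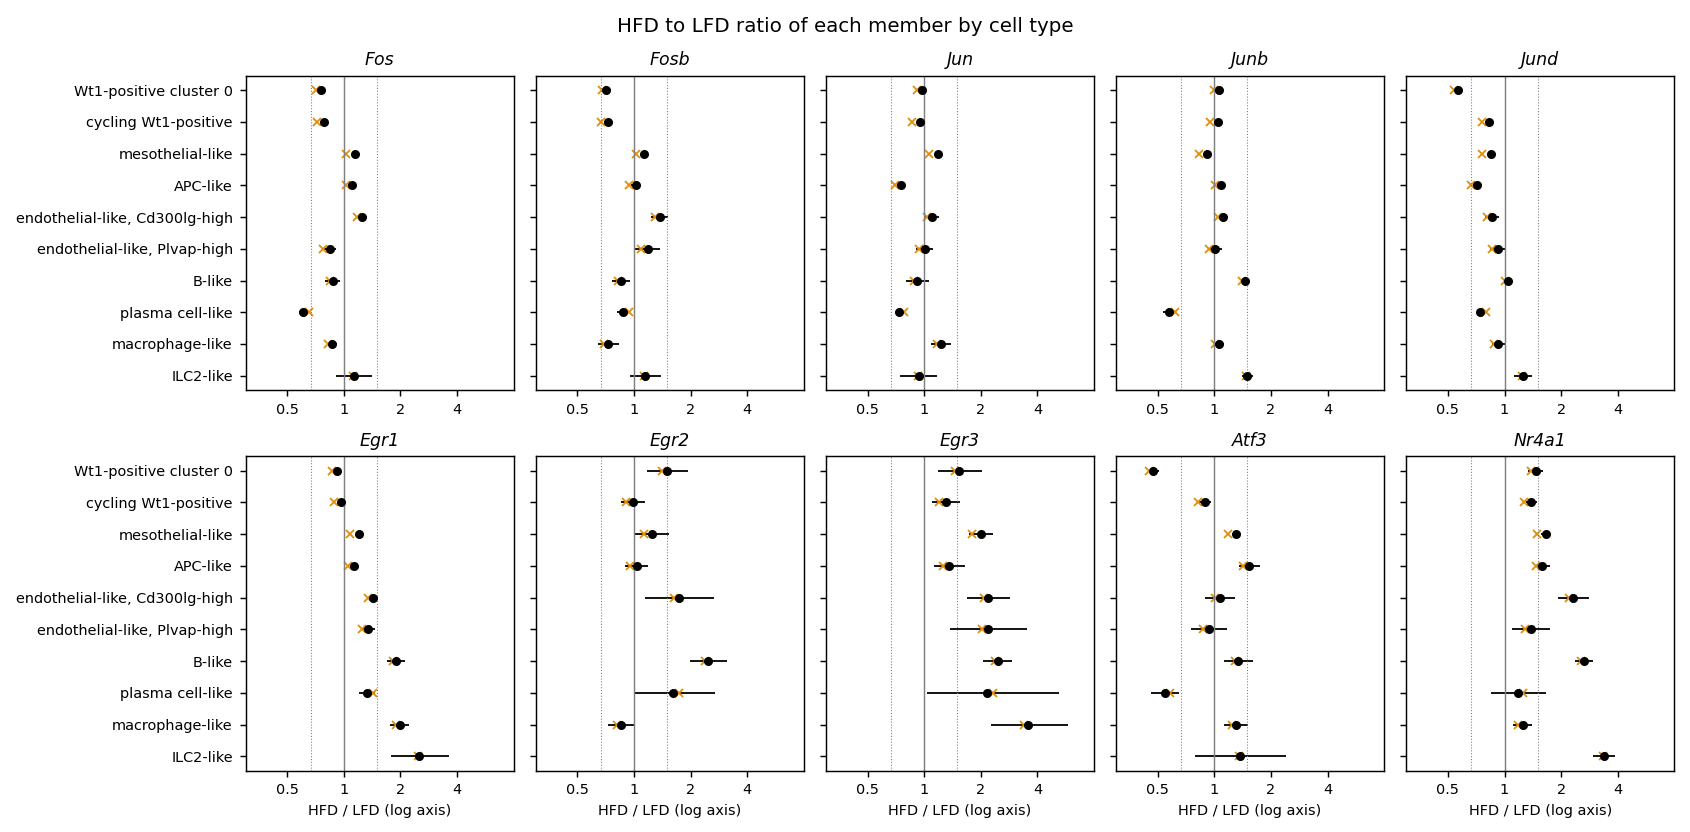
HFD to LFD ratio (log axis) of each factor in each cell type with at least 50 counts, with 95% counting intervals. Orange crosses are the ratios scaled to the median gene of the type, the solid line is 1 and the dotted lines are 1.5-fold either way. Egr3 and Nr4a1 lie right of 1 in every type, and Fos, Fosb, Jun, Junb and Jund stay left of the upper dotted line in these clusters.

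By cell type, B-like cells had the most factors at least 1.5 times higher, 4 of 10, with 0 lower, against 8.13% and 5.02% of all genes there. Cd300lg-high endothelial-like cells had 3 higher of 10, against 11.8%, and macrophage-like cells 2, against 7.72%. ILC2-like cells had 2 of 8, against 17.6%, mesothelial-like cells 2 of 10, against 16.5%, and APC-like cells 2 of 10, against 15.5%. Plvap-high endothelial-like cells had 1 of 9, against 13.3%. None was 1.5 times lower in these 6 types, where the share of all genes that low was 6% in Cd300lg-high endothelial-like, 4.03% in macrophage-like, 12.3% in ILC2-like, 4.95% in mesothelial-like, 5.22% in APC-like and 5.96% in Plvap-high endothelial-like cells.

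Plasma cell-like cells had 2 higher (Egr2 and Egr3) and 3 lower (Fos, Junb and Atf3), against 4.84% and 7.18% of all genes. The direction of these 2 higher pairs turned with the processing, Egr2 lying below 1 under 4 alternatives and Egr3 under 3, down to 0.444. Wt1-positive cluster 0 had 1 higher (Egr3) and 2 lower (Jund and Atf3), against 12.8% and 6.71%. All 5 lower pairs came from these 2 types, whose cells lay mostly in 1 library or in different clusters by library. Cycling Wt1-positive cells had none either way, against 8.52% and 3.91%.

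Summed over the 10 factors, Cd300lg-high endothelial-like cells were highest among the types compared, at 10032 CPM in LFD and 12298 in HFD. Plvap-high endothelial-like cells, whose leading genes included Plvap, Aplnr and Mest, had 2890 and 2958 CPM. The 2 endothelial groups differed in depth, with median UMIs of 1845 and 2273 per Cd300lg-high cell and 7857 and 5698 per Plvap-high cell, and the part of depth was not tested. After thinning to 2000 UMIs, which left out 186 of 329 LFD and 155 of 406 HFD Cd300lg-high cells, medians were 17 and 24 factor UMIs per cell, against 4 and 4 in Plvap-high cells. B-like cells were lowest in LFD (2250 CPM) and plasma cell-like cells in HFD (2174 CPM). The summed level spanned 4.78-fold over the types with at least 100 cells in LFD, where Wt1-positive cluster 4 was highest at 10754 CPM, and 5.66-fold in HFD.

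The sum was higher in HFD in ILC2-like cells (5331 CPM in LFD, 8322 in HFD), B-like cells (2250 and 2900), Cd300lg-high endothelial-like cells and, by less, mesothelial-like (5120 and 5652) and macrophage-like cells (3162 and 3319). It was lower in plasma cell-like cells (2970 and 2174), Wt1-positive cluster 0 (7291 and 5992) and cycling Wt1-positive cells (5091 and 4599). APC-like cells (9098 and 9332) and Plvap-high endothelial-like cells differed little. A mural-like cluster of 12 LFD and 75 HFD cells, in which all 10 endothelial markers were raised too, had 15026 CPM in HFD and was not among the types compared. From those 12 LFD cells, its ratios were 1.58 for Fos, 2.35 for Fosb, 1.78 for Jun, 2.01 for Junb and 1.71 for Jund.

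**Figure D3:**
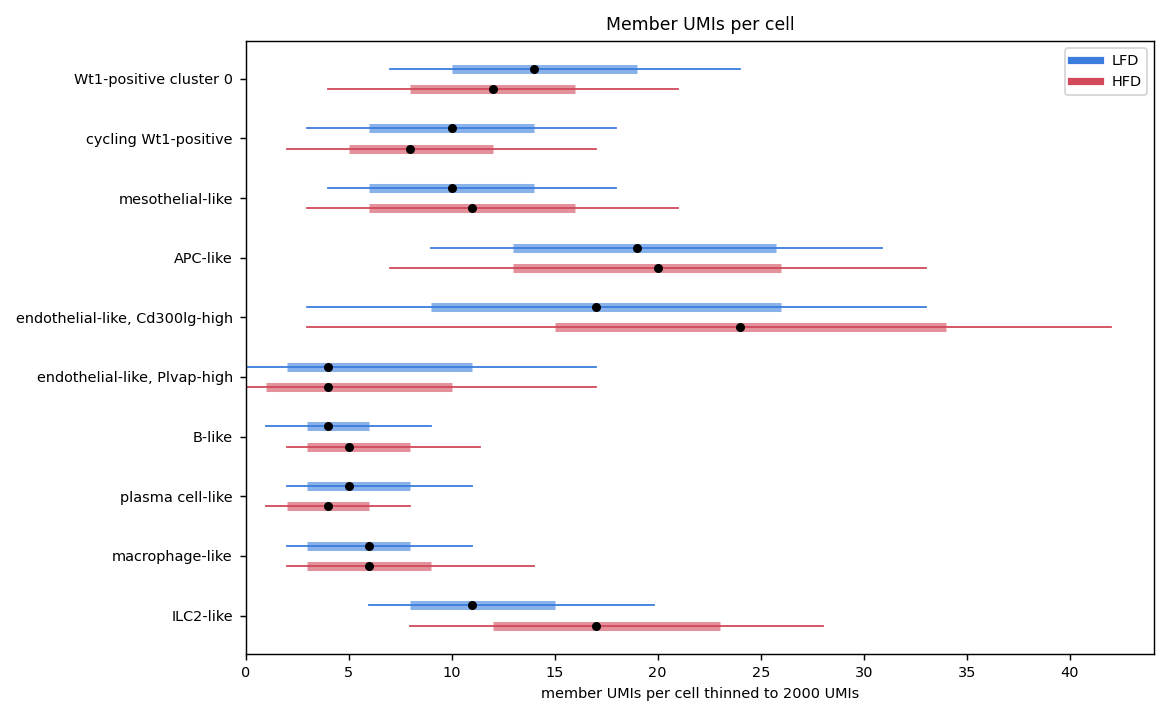
Factor UMIs per cell after thinning each cell to 2000 UMIs, in LFD (blue) and HFD (red). Points are medians, thick bars the middle 50% of cells and thin lines the 10th to 90th percentiles. Cd300lg-high endothelial-like and APC-like cells lie highest, and Plvap-high endothelial-like cells reach from 0 to 17.

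Within types, the factors were spread over most cells. In APC-like cells 0.990% of LFD and 1.07% of HFD thinned cells had no factor UMI, and 88.1% and 84.5% had UMIs of at least 5 factors. In Plvap-high endothelial-like cells 11.8% and 14.6% had none, and the 10% of cells with most factor UMIs held 31.4% and 36.01% of them. In ILC2-like cells, which held a median of 11 factor UMIs in LFD and 17 in HFD, the top 10% held 19.5% and 17.9%.

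The make-up of the factor UMIs differed between lineages. Fos and Egr1 together gave 39.0% to 46.8% of factor UMIs in the Wt1-positive, mesothelial-like, APC-like and endothelial-like groups compared, and 6.399% to 6.99% in ILC2-like cells. In ILC2-like cells Junb gave 49.2% in LFD and 47.0% in HFD, and in plasma cell-like cells Jund gave 43.3% and 43.8%. B-like cells were led by Jund (33.5%) in LFD and by Junb (35.5%) in HFD. Nr4a1 took 9.002% of the factor UMIs of ILC2-like cells in LFD and 19.5% in HFD, and 4.32% and 8.86% in B-like cells. Across the 24 pairs of cell type and library with at least 100 cells, log2 levels correlated most between Junb and Nr4a1 (r = 0.909) and between Fos and Egr1 (r = 0.907), and Jun and Junb had r = 0.0425. Such points share 2 libraries and differ in depth.

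**Figure D4:**
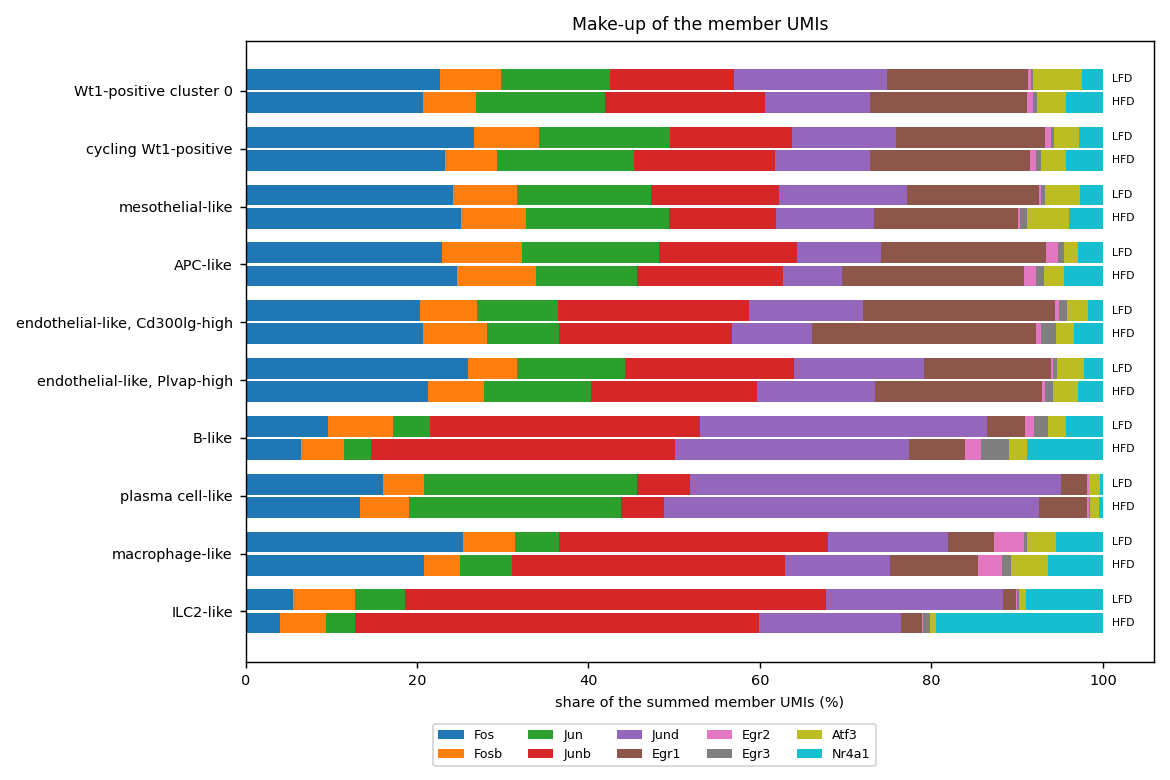
Share of the summed factor UMIs (%) given by each of the 10 factors, per cell type and library. Junb is the largest share of the ILC2-like bars (49.2% and 47.0%) and Jund of the plasma cell-like bars (43.3% and 43.8%).

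Outside the lists, the genes whose log2 level followed the mean of the factors most closely over these 24 points, of 9953 compared, were Neat1 (r = 0.888), Rab33b (0.884) and Thra (0.872). Neat1 is a long RNA kept in the nucleus.

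Other genes of the early response gave further values. Of the other family members, Nr4a2, a relative of Nr4a1, was above 1 in every type tested, and in APC-like cells was 141 CPM in LFD and 326 in HFD (2.32, 2.06 to 2.63). Nr4a3, the third of that family, was 123 and 443 CPM in ILC2-like cells (3.61, 2.78 to 4.74) and 19.7 and 61.7 CPM in B-like cells (3.13, 2.48 to 3.98). In ILC2-like cells 4 of 6 family genes were at least 1.5 times higher and 1 lower, against 17.6% and 12.3% of all genes there. In APC-like cells 4 of 9 were higher and 0 lower, against 15.5% and 5.22%, and in plasma cell-like cells 1 of 7 higher and 4 lower, against 4.84% and 7.18%. Batf, an AP-1 factor of lymphocytes, was the one lower in ILC2-like cells, at 96.6 and 34.9 CPM.

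Among other early response genes, 10 of 16 in ILC2-like cells were at least 1.5 times higher and 2 lower, against the same 17.6% and 12.3%, with a median ratio of 1.56 against 1.01 for all genes there. Zfp36, which degrades cytokine mRNAs, was 143 CPM in LFD and 406 in HFD (2.85, 2.21 to 3.69). In macrophage-like cells 0 of 21 were higher and 0 lower, against 7.72% and 4.03% of all genes, and in plasma cell-like cells 0 of 21 higher and 3 lower, against 4.84% and 7.18%. Of 19 early response genes tested in at least 9 types, 1 was above 1 in each type and 1 below, near the 9.58% and 3.23% of all genes. Cebpb, a factor of inflammation and fat cell differentiation, was the one above, and Socs3, an inhibitor of cytokine signalling, the one below.

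Feedback inhibitors are the phosphatases, Sprouty proteins and Nab proteins that damp the kinases and factors. In Wt1-positive cluster 0, 8 of 13 were at least 1.5 times higher and 1 lower, against 12.8% and 6.71% of all genes. Of the 8, however, 2 were at 0 in LFD. With these set against 3 counts 6 were higher, and the median was 1.30, against 1.06. In APC-like cells 6 of 11 were higher and 0 lower, against 15.5% and 5.22% (median 1.53 against 1.08), and in B-like cells 4 of 7 and 0, against 8.13% and 5.02% (1.53 against 1.04). Dusp5, a nuclear phosphatase of ERK kinases, was 18.0 CPM in LFD and 62.7 in HFD in B-like cells (3.49, 2.75 to 4.47) and 85.9 and 229 CPM in ILC2-like cells (2.67, 1.91 to 3.76). In macrophage-like cells 1 of 8 was higher, against 7.72%, with a median of 0.909. Of the upstream factors and kinases, 0 to 4 genes of the 4 to 17 tested per type were higher, against 4.84% to 17.6% of all genes, and at most 1 lower, against 3.91% to 12.3%.

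Heat shock genes, some of which are known to be raised by dissociation, were compared as a reference. The list was mixed, so its sum is not by itself a measure of dissociation. In plasma cell-like cells Hspa5 alone gave 2248 CPM in LFD and 1496 in HFD, of sums of 5525 and 3898 CPM. Of its 14 genes none was at 0 in any type compared, and the summed level ranged from 3747 to 8622 CPM in LFD and from 3898 to 8626 in HFD. In ILC2-like cells, where Nr4a1 differed most, 1 of 7 heat shock genes was at least 1.5 times higher and 3 lower, against 17.6% and 12.3% of all genes, with a median of 0.762, and the sum was 6521 CPM in LFD and 5836 in HFD. In B-like cells 0 of 11 moved past 1.5-fold, against 8.13% higher and 5.02% lower, and the sum was 5253 and 4379 CPM. In Cd300lg-high endothelial-like cells 1 of 11 was higher and 1 lower, against 11.8% and 6%, and the sum was 6702 and 6565 CPM. In mesothelial-like and in cycling Wt1-positive cells 3 of 14 were higher and 0 lower. Of all genes there, 16.5% and 8.52% were higher and 4.95% and 3.91% lower. The heat shock sums were 8622 and 8571 CPM in the former and 8211 and 8626 CPM in the latter. Hspa1b, an inducible Hsp70 gene, was 13.3 CPM in LFD and 65.3 in HFD in mesothelial-like cells (4.91, 4.22 to 5.70), where Egr3 and Nr4a1 were also past 1.5-fold. Its ratio was 3.57 in cycling Wt1-positive cells, 3.11 in Wt1-positive cluster 0 and 2.34 in APC-like cells. In Wt1-positive cluster 0, 2 of 14 were higher, against 12.8% of all genes, and in macrophage-like cells 2 of 13, against 7.72%. None was lower in either, against 6.71% and 4.03%. In plasma cell-like cells 2 of 13 were higher and 2 lower, against 4.84% and 7.18%. In APC-like cells 1 of 14 was higher, against 15.5%, and in Plvap-high endothelial-like cells 0 of 12 were higher and 1 lower, against 13.3% and 5.96%. Within types, the rank correlation over thinned cells of factor UMIs with heat shock UMIs ran from -0.208 to 0.281 in the types compared, and that with the mitochondrial share from -0.473 to 0.0749. Heat shock and mitochondrial values are given as measurements, and a part of dissociation in the results was not tested.

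Keratin content was used, after seeing the data, to group all Wt1-positive and mesothelial-like cells outside the cycling cluster in another way. Among cells with 0 keratin UMIs in 2000, 3804 in LFD and 1773 in HFD, Fos was 1885 CPM in LFD and 1312 in HFD (0.696, 0.688 to 0.704), and Nr4a1 234 and 278 CPM (1.19, 1.16 to 1.23). Among cells with 5 or more, 169 and 152, Fos was 1267 and 1397 CPM (1.10, 1.05 to 1.16) and Nr4a1 167 and 242 CPM (1.45, 1.28 to 1.65). Egr3 was at 0.889 (0.826 to 0.957) in the first group and at 2.22 (1.57 to 3.18) in the other, while Nr4a1 was above 1 in both. The keratin groups hold different clusters in each library, since clusters 1 and 4 had 2003 and 1198 LFD but 77 and 73 HFD cells, and cluster 0 had 207 LFD and 2338 HFD cells. Within these clusters Egr3 was above 1, at 1.53 in cluster 0, 1.42 in cluster 1 and 1.55 in cluster 4. Junb, Jund and Atf3 were below 1 in each keratin group, Junb at 0.879 to 0.969 and Atf3 at 0.788 to 0.830.

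**Figure D5:**
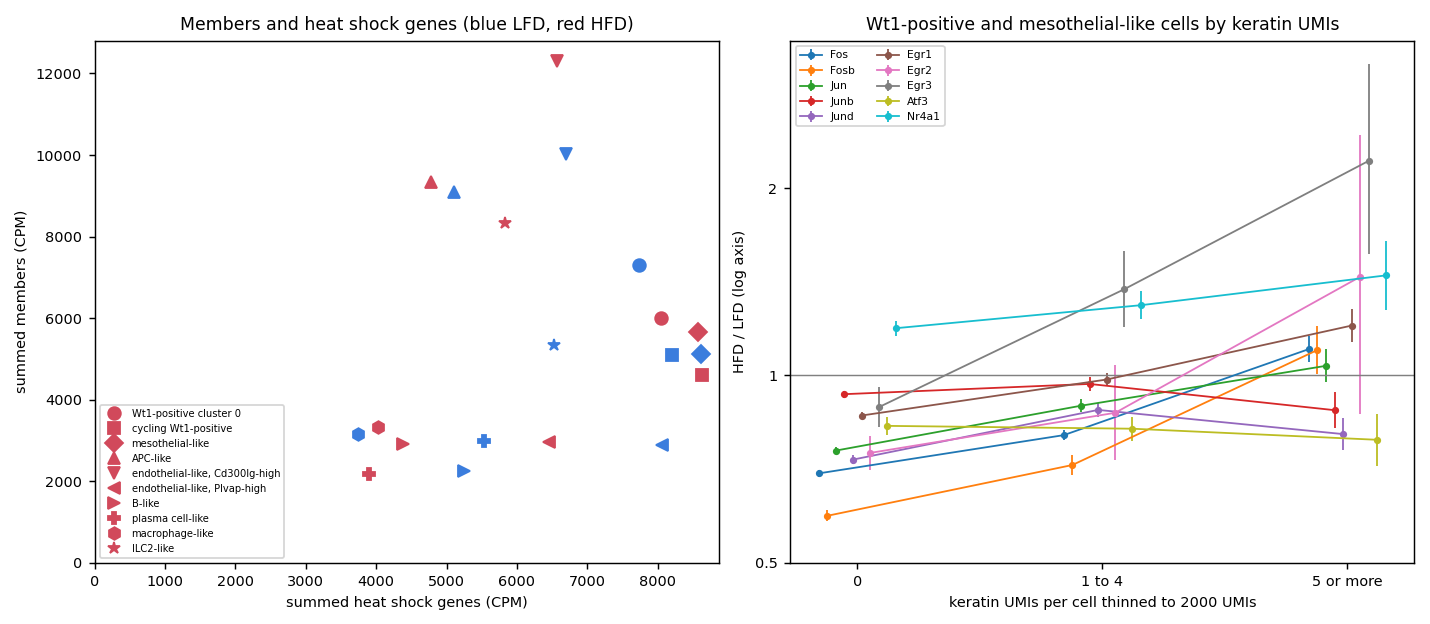
Left, summed CPM of the 10 factors against summed CPM of 14 heat shock genes, one symbol per cell type, LFD in blue and HFD in red. Right, HFD to LFD ratio (log axis) of each factor in Wt1-positive and mesothelial-like cells grouped by keratin UMIs, with 95% counting intervals; Nr4a1 stays above 1 in all 3 groups and Egr3 is below 1 in the first.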

How the data were processed

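Single-cell RNA-seq libraries of LFD and HFD eYFP+ cells, 1 each, were analysed. The authors deposited UMI counts of each barcode for each gene, with no normalization, made with Cell Ranger 4.0.0 on mm10. Their processing notes also name Seurat 4.1.0, bcl2fastq 2.17.1.14 and STAR. Totals were 114311020 UMIs in 11281 LFD barcodes and 119498750 in 9631 HFD barcodes. The deposited gene and barcode lists were used as names only.

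Cells with 500 to 40000 UMIs, at least 100 genes and under 12.5% mitochondrial UMIs were kept, 10216 in LFD and 8537 in HFD. Doublets were scored against simulated pairs, and the highest scores were removed at 0.8% per 1000 barcodes, 922 (9.03%) in LFD and 658 (7.71%) in HFD. Libraries were centred and scaled separately, and 2000 variable genes without the factors and the listed early response and heat shock genes gave 30 principal components, 20 neighbours and Leiden clusters at resolution 0.8 (leidenalg 0.10.2, scipy 1.17.1, Python 3.11.15).

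The factors, lists and tests were chosen with earlier results of these data known. The rule that names clusters from markers was settled after the clusters were seen. All 10 factors were named, and of each other list up to 4 genes per cell type by size of ratio. A ratio was called at 1.5-fold with 50 counts. With 1 library per diet no test between diets was made. Ratios have exact conditional binomial intervals and shares exact Clopper-Pearson intervals, all at 95% and covering counting error only. The free RNA estimate is the level of collagen genes in immune cells, or of plasma cell genes in others, relative to the whole library. Promoter sequences are from RefSeq.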

Additional observations from a re-analysis of the deposited data

Results flagged for a closer look

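One result was marked for a closer look because a factor was called in opposite directions in 2 cell types. For Atf3, the HFD to LFD ratio was 1.54 in APC-like cells and 0.474 in Wt1-positive cluster 0, and the first was 3.24 times the other. With 1 library per diet this difference was not tested. Cluster 0 held 207 LFD and 2338 HFD cells, and in Wt1-positive clusters 1 and 4 the ratios were 0.763 and 0.877. When cells were assigned one by one, Atf3 was at 0.855 in the Wt1-positive class and at 0.837 in the APC-like class, which held 4733 LFD and 2676 HFD cells against 203 and 566 in the APC-like cluster. Groups of 1 library allow no check for outlying samples.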

How the results depend on the processing

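No paired analysis was possible because each diet had 1 library. Under the alternatives, 447 of 600 re-computed factor ratios stayed within their counting interval, and of 151 values of ratios past 1.5-fold, 143 stayed on the same side of 1. Nr4a1 was above 1 in 59 of 62 re-computed values and Egr3 in 52 of 55, and all 6 exceptions were in plasma cell-like cells, while the keratin groups, not counted here, added 1 for Egr3 (0.889), in a group of different clusters by library. At resolution 0.4, with at least 2000 UMIs and with cells assigned one by one, the endothelial-like groups were 1 merged group. The cause of each change below was not tested unless stated.

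The 19 pairs higher in HFD became 12 of 107 (11.2%) with doublets kept and 5 of 27 under 5% mitochondrial UMIs, where 3 cell types were left, and stayed within 1.5 times of 19 under the other alternatives (13 to 23). The 5 lower pairs became 9 at Leiden resolution 1.6, 3 under 5% mitochondrial UMIs and 3 with cells assigned one by one. No share of all genes past 1.5-fold is given under these alternatives. Leaving out Wt1-positive cluster 0 and plasma cell-like cells, an alternative added after seeing the data, gave 16 of 77 (20.8%) higher and 0 lower. In the 8 types left, 7.72% to 17.6% of all genes were higher and 3.91% to 12.3% lower.

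In plasma cell-like cells, Egr2 was at 0.998 by the mean over cells, 0.859 with doublets kept, 0.626 at resolution 1.6 and 0.903 with cells assigned one by one, and Egr3 at 0.927, 0.444 and 0.861 under the last 3 of these. Nr4a1 was there at 0.780, 0.608 and 0.688. Atf3 was at 0.837 in the APC-like class and 0.855 in the Wt1-positive class with cells assigned one by one, where 2828 cells lay near the limit between classes.

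The spread of the summed level, 4.78-fold in LFD and 5.66-fold in HFD, was 3.26 and 4.86 with doublets kept, 4.05 and 4.29 at resolution 0.4, 6.16 and 5.32 under 5% mitochondrial UMIs, 4.97 and 5.13 with at least 2000 UMIs, 3.30 and 3.45 with cells assigned one by one, and in HFD 5.52 at resolution 1.6. The highest minus the lowest share of cells with a Fos UMI, 65.3 percentage points in LFD and 65.7 in HFD, was 71.1 in LFD at 1000 UMIs, and 50.4 and 54.1 without thinning, where deeper cell types approach 100%. Low counts limit Egr2 and Egr3 in ILC2-like cells (2 and 5 counts, 8 and 30 counts) and in plasma cell-like cells (21 and 134, 8 and 68).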

Other observations

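Cell types with under 100 cells in a library were left out of the comparisons, and these values were chosen after they were seen. In dendritic cell-like cells (121 in LFD, 87 in HFD), Egr3 was 12.9 CPM in LFD and 140 in HFD (10.8, 5.78 to 22.3), from 11 and 98 counts, and Nr4a1 was 149 and 345 CPM (2.31, 1.86 to 2.89). In neutrophil-like cells (159 and 71), Egr1 was 353 and 822 CPM (2.33, 1.64 to 3.32), from 69 and 65 counts. In T-like cells (82 and 75), Nr4a1 was 118 and 257 CPM (2.18, 1.38 to 3.51), whereas Egr1 was 118 and 60.8 CPM (0.516, 0.248 to 1.01), where free RNA could give 59.1 and 34.9 CPM.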
